A study of Mus musculus with 6 samples.

Results

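The neural crest and pharyngeal arch genes described here were 27 listed genes, matched by symbol in deposited tables of 23366 genes. They were measured in whole mouse embryos at E10.5. Every one of the 27 was present in the tables, and every one passed the filter on low counts, as did 15075 genes in all. The genes were kept in 2 sets: 14 genes of migratory and glial crest, and 13 genes of arch and craniofacial mesenchyme. The study's question, as its title gives it, is what the histone variant H3.3, encoded by H3f3a and H3f3b, does for the integrity of the genome in development.

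The 3 control embryos were Trp53-/-; H3f3afl/+; H3f3bfl/+; Sox2-CreTg/0, and the 3 knockout embryos were Trp53-/-; H3f3afl/-; H3f3bfl/-; Sox2-CreTg/0, on a strain labelled as mixed C57BL/6 CD1 129. By genotype both groups were therefore null for Trp53, which encodes p53, and both carried the Cre transgene. Sox2-Cre is active in the epiblast, the layer that gives rise to the embryo proper, and the controls carried 1 floxed copy of each H3.3 gene, so they were not embryos with intact H3.3. No label says whether the embryos shared litters or whether any library was a pool. Each library is counted here as 1 embryo. Each p-value measures the spread between these libraries only.

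Neural crest cells arise at the border of the neural plate, leave the closing neural tube by an epithelial to mesenchymal transition and migrate through the embryo. Trunk and vagal crest gives peripheral neurons, glia and pigment cells. Cranial crest fills the pharyngeal arches and the face, where nested Dlx genes and endothelin signals mark upper and lower jaw territories.

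H3f3a counts were 9851, 10775 and 9685 in controls 1 to 3 and 1818, 1744 and 1996 in knockouts 1 to 3, and the groups were far apart. H3f3b counts were 19717, 21379 and 18942 in controls and 12164, 13626 and 11431 in knockouts. Reads were still counted at Trp53, with 64, 87 and 88 in controls and 148, 86 and 136 in knockouts. Its log2 fold change was 0.71 ± 0.24 (SE), not called in edgeR (adjusted p = 0.169). Gene counts per library ran from 24952853 to 30461689. The share of alignments that fell outside genes was 9.79%, 10.7% and 13.1% in controls and 18.3%, 10.6% and 18.0% in knockouts, so knockout 2 alone among the knockouts lay within the controls' range. Vegfa, a vascular growth factor that low oxygen induces, averaged 40.2 ± 8.22 CPM (SD, n = 3; CPM is a gene's reads per 1000000 gene reads of its library, scaled by edgeR's TMM factors) in controls and 114 ± 25.5 CPM in knockouts. It was the only one of 10 low oxygen response genes called in edgeR (adjusted p = 0.00699), and its call was lost without control 2 (adjusted p = 0.0665). All 10 had log2 fold changes above 0, with a median of 1.17. Of the 10 genes 7 (70%) reached an unadjusted p under 0.05 in edgeR, against 19.2% of all genes tested. Adm, another such gene, had 40, 45 and 36 counts in controls and 87, 499 and 145 in knockouts, highest in knockout 2. DESeq2 called both genes, and edgeR called Adm too without knockout 1 (adjusted p = 0.0370) or knockout 2 (adjusted p = 0.00329).

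None of the 27 genes differed between knockout and control embryos at an adjusted p under 0.05 in edgeR's quasi-likelihood test, with Benjamini-Hochberg adjustment over all genes tested. Of all genes tested, 1.51% were called, 0.551% higher and 0.955% lower in knockouts. DESeq2 likewise called 0 of the 27, against 5.17% of all genes. At an unadjusted p under 0.05 there were 2 of the 27 genes (7.41%), against 19.2% of all genes tested. These were Msx1, with lower values in knockouts (edgeR unadjusted p = 0.0177, adjusted p = 0.172), and Alx4, with higher values (edgeR unadjusted p = 0.0309, adjusted p = 0.214). By direction, 10.7% of all genes reached it with higher and 8.53% with lower values in knockouts. The values of the 2 groups did not overlap for 5 genes (18.5%), against 24.1% of all genes tested. The lowest adjusted p of any of the 27 was 0.172, for Msx1.

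The intervals bound how large a difference these 6 libraries leave room for. The 95% interval of the fold change lay within 1.5-fold either way for 24 of the 27 genes (88.9%), the exceptions being Sox10, Dlx3 and Dlx5. The share was 65.3% over all genes tested and 80.5% over tested genes with means in the same range. For 26 of the 27 the interval lay within 2-fold, and for Dlx3 it reached 2.04-fold higher. In RNA from whole embryos, fewer cells of a type and less RNA per cell cannot be told apart, and a gene's level is a mean over every tissue that expresses it.

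The fitted fold changes of the 2 sets leaned in different directions, with no test made over either list. Among the 14 crest genes 12 had a log2 fold change above 0 and 2 below, with a median of 0.09 and a range from -0.08 to 0.26. Foxd3 and Sox9 lay so near 0 that their signs changed with the scaling (Foxd3 0.0025 with RLE scaling, Sox9 -0.0051 with upper quartile scaling). Among the 13 arch genes 4 lay above 0 and 9 below, with a median of -0.10 and a range from -0.36 to 0.40. The median over all genes tested was -0.0010. With the share of alignments outside genes as a covariate the arch median was 0.017, so that both sets then lay above 0. Without knockout 2 the crest median was 0.046. Of the crest genes 0 were called and 0 reached an unadjusted p under 0.05 in edgeR, and of the arch genes 0 were called and 2 reached it.

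**Figure D1:**
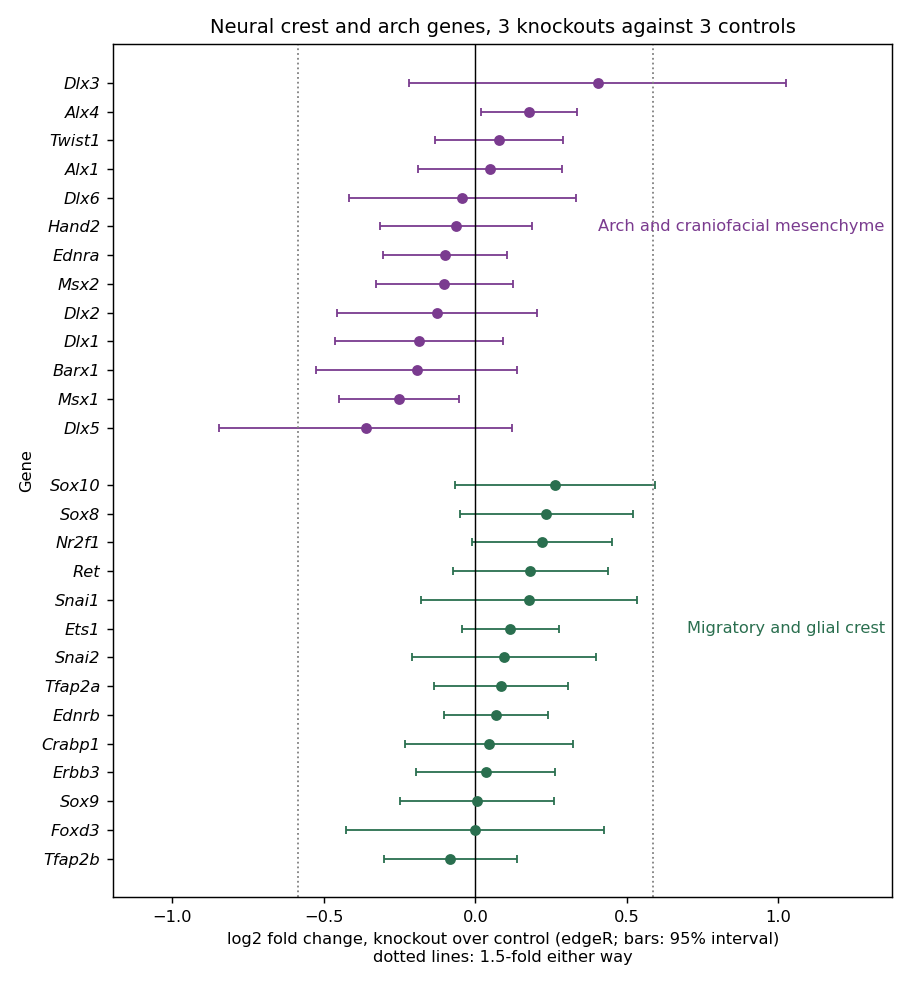
Fitted log2 fold change of knockout over control (x axis) for each of the 27 genes (y axis), with crest genes in green and arch genes in purple. Bars are 95% intervals from 3 libraries per group and dotted lines mark 1.5-fold either way. The intervals of Msx1 and Alx4 leave out 0, and those of Dlx3, Dlx5 and Sox10 cross a dotted line.

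The first crest genes act in specification and departure from the neural tube. Foxd3, a forkhead repressor that marks early crest and is kept in its multipotent progenitors, had 4.22, 3.98 and 4.95 CPM in controls and 4.01, 5.39 and 3.74 in knockouts. The groups overlapped, and the fitted log2 fold change was -0.0009 ± 0.19 (SE), with a 95% interval from -0.43 to 0.42. Tfap2a, an AP-2 factor needed for crest induction and facial closure, had 21.1, 18.0 and 21.0 CPM in controls and 21.8, 21.0 and 21.0 in knockouts. Tfap2b, its paralogue in crest and sympathetic precursors, had 64.6, 59.0 and 66.7 CPM in controls and 66.6, 53.3 and 59.7 in knockouts. It was 1 of the 2 crest genes with a fold change below 0 (-0.08 ± 0.10), Foxd3 being the other.

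Ets1 encodes a transcription factor of cranial and cardiac crest that is also strong in endothelium. Its CPM were 122, 121 and 120 in controls and 126, 140 and 127 in knockouts, and every knockout lay above every control. The step was 0.12 ± 0.07 on the log2 scale (adjusted p = 0.388). Kdr, the VEGF receptor that marks endothelium, rose by 0.44 on the same scale (adjusted p = 0.0302), a call lost without control 1, 2 or 3 or without knockout 3. Of 10 endothelial markers tested 8 had fold changes above 0, and their summed level was 376 to 393 CPM in controls and 418 to 557 CPM in knockouts. In edgeR 1 of the 10, Kdr, was called and 4 (40%) reached an unadjusted p under 0.05, against 19.2% of all genes tested. DESeq2 called 4 higher in knockouts (Esam, Flt1, Kdr and Tie1) and 0 lower, against 5.17% of all genes called. The part of endothelium in the level of Ets1 was not tested.

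Snai1 and Snai2 encode zinc finger repressors of E-cadherin that act as crest cells detach. Snai1 had 23.5, 21.4 and 19.4 CPM in controls and 20.5, 30.8 and 21.5 in knockouts. Snai2 had 24.8, 20.1 and 21.6 CPM in controls and 22.3, 28.1 and 20.6 in knockouts. Both genes were highest in knockout 2, while knockouts 1 and 3 lay among the controls. The log2 fold changes were 0.18 ± 0.16 for Snai1 (adjusted p = 0.554) and 0.09 ± 0.13 for Snai2 (adjusted p = 0.726). Sox9, which acts in premigratory crest and in cartilage precursors of the arches and somites, had 111, 86.4 and 117 CPM in controls and 106, 111 and 98.8 in knockouts, a log2 fold change of 0.0047 ± 0.11.

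Sox10 keeps migrating crest cells multipotent and then directs the glial lineage, with its SoxE relative Sox8 expressed beside it. Sox10 had 18.6, 14.9 and 15.7 CPM in controls and 17.1, 23.8 and 18.1 in knockouts, or 16.4 ± 1.96 against 19.7 ± 3.59 CPM (SD, n = 3). Knockout 2 was again the highest library, and the other knockouts lay within the controls' range. The log2 fold change was 0.26 ± 0.15, the largest among the crest genes, with an interval from -0.07 to 0.59 (adjusted p = 0.349). With the share of alignments outside genes as a covariate, Sox10, Snai1 and Dlx3 were called higher, in a fit that called 4.96% of all genes tested. Only knockout 2 lies within the controls' range of that share, so the fit leans on knockout 2.

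Sox8 had 8.51, 8.26 and 9.08 CPM in controls and 9.17, 9.94 and 11.3 in knockouts. The groups did not overlap, but control 3 and knockout 1 were almost level, and the log2 fold change was 0.23 ± 0.13 (adjusted p = 0.335). 2810468N07Rik, chosen after its values were seen, shares 329 exonic bases with Sox8 on the opposite strand, so reads of the pair may be mixed. It had 63, 81 and 64 counts in controls and 87, 89 and 85 in knockouts, with the groups apart in CPM and a log2 fold change of 0.41 ± 0.19 (adjusted p = 0.267). Erbb3, the neuregulin receptor on migrating crest and Schwann cell precursors, had 21.7, 18.0 and 21.5 CPM in controls and 21.0, 20.4 and 21.2 in knockouts. Its log2 fold change of 0.03 ± 0.10 (adjusted p = 0.882) had an interval within 1.5-fold. The interval of Sox10, which marks the same migrating glial lineage, reached 1.51-fold higher, just past that bound, and overlapped that of Erbb3.

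**Figure D2:**
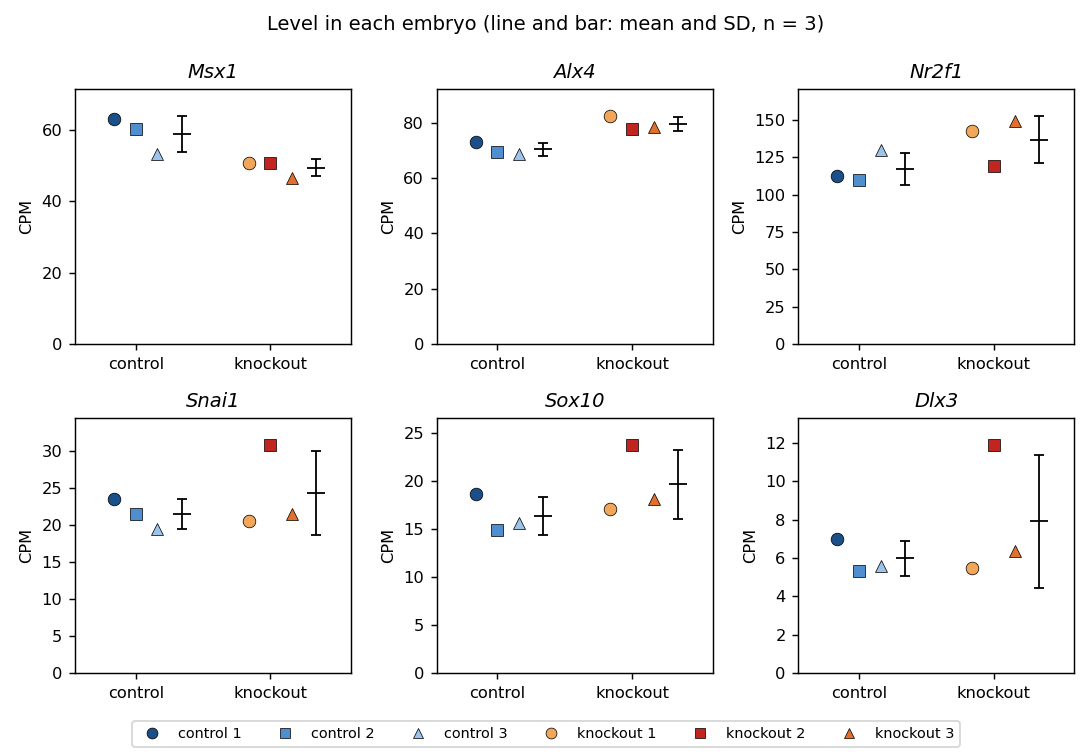
CPM (y axis, from 0) in each of the 6 embryos for Msx1 and Alx4, which reached an unadjusted p under 0.05, and for Nr2f1, Snai1, Sox10 and Dlx3, which were called only under an alternative fit. Each point is 1 library, and the line and bar beside each group are its mean and SD (n = 3). Knockout 2 is the highest point for Snai1, Sox10 and Dlx3.

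Ednrb and Ret encode receptors of crest derivatives that colonise the gut and skin. Ednrb, the endothelin receptor needed by melanoblasts and enteric precursors, had 101, 91.4 and 96.0 CPM in controls and 104, 104 and 93.9 in knockouts. Ret, the GDNF receptor of enteric and sympathetic precursors that is also expressed in the nephric duct, had 17.0, 13.6 and 16.5 CPM in controls and 17.2, 18.8 and 17.4 in knockouts. Ret values did not overlap between groups, with control 1 just below knockout 1, and its log2 fold change was 0.18 ± 0.11 (adjusted p = 0.402). That of Ednrb was 0.07 ± 0.08 (adjusted p = 0.644). Over the 6 nephric duct and kidney markers tested, summed levels were 30.7 to 46.3 CPM in controls and 41.5 to 52.3 CPM in knockouts, and their part in Ret was not tested.

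Crabp1 encodes a retinoic acid binding protein of migrating hindbrain crest and arch mesenchyme. It had 218, 242 and 188 CPM in controls and 194, 259 and 216 in knockouts, with overlapping groups and a log2 fold change of 0.05 ± 0.12 (adjusted p = 0.864). Nr2f1 encodes the nuclear receptor COUP-TFI, which acts in cranial crest, ganglia and forebrain. It had 113, 110 and 130 CPM in controls and 143, 119 and 149 in knockouts, or 117 ± 10.8 against 137 ± 15.9 CPM (SD, n = 3). Knockouts 1 and 3 lay above all controls and knockout 2 lay among them. The log2 fold change was 0.22 ± 0.10, with an interval from -0.01 to 0.45 (edgeR unadjusted p = 0.0582, adjusted p = 0.273). Without knockout 2 it was 0.31 and passed the threshold (adjusted p = 0.0410), in a fit that called 10.8% of all genes tested.

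A noncoding transcript, A830082K12Rik, overlaps Nr2f1 on the opposite strand over 123 exonic bases of the annotation used. The strand setting of the deposited counts is not given in the sources used here, so reads of the 2 genes may not have been told apart. A830082K12Rik, chosen after its values were seen, had 247, 242 and 186 counts in controls and 307, 295 and 348 in knockouts. Every knockout lay above every control, with 7.76 ± 1.03 against 11.6 ± 0.575 CPM and a log2 fold change of 0.57 ± 0.13. It missed the threshold in edgeR (adjusted p = 0.0800), passed it in DESeq2 (adjusted p = 0.0118) and passed it in edgeR without knockout 2 (adjusted p = 0.0223).

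In the arch set, the Dlx genes pattern the arch mesenchyme from top to bottom. Dlx1 and Dlx2 lie together on 1 chromosome and are expressed in the whole arch, while Dlx5 and Dlx6 lie together on another and mark its lower part. All of the Dlx genes except Dlx3 are also expressed in the ventral forebrain. Of the 5 Dlx genes 4 had log2 fold changes below 0, of which Dlx6 was 0.015 when only library totals were used for scaling, and 0 of 5 were called or reached an unadjusted p under 0.05 in edgeR, with 0 called by DESeq2.

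Dlx1 had 12.9, 10.6 and 13.3 CPM in controls and 11.2, 10.6 and 10.6 in knockouts, a log2 fold change of -0.19 ± 0.12 (adjusted p = 0.421). Dlx2 had 10.8, 9.32 and 11.3 CPM in controls and 8.63, 11.3 and 8.82 in knockouts, a log2 fold change of -0.13 ± 0.15 (adjusted p = 0.655). Control 2 was the lowest control for both genes, and it reached down to the knockouts for Dlx1. Dlx5 had 7.72, 4.42 and 7.24 CPM in controls and 5.59, 4.80 and 4.70 in knockouts. Its lowest value came from control 2, so the groups overlapped, and the log2 fold change of -0.36 ± 0.21 had an interval from -0.85 to 0.12 (adjusted p = 0.377). Dlx6, its neighbour, had 3.53, 3.27 and 3.57 CPM in controls and 3.74, 3.14 and 3.19 in knockouts, a log2 fold change of -0.04 ± 0.17 (adjusted p = 0.910).

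Dlx3, which acts in the lowest arch mesenchyme and in surface ectoderm and placenta, lay on the other side. It had 7.00, 5.34 and 5.58 CPM in controls and 5.47, 11.9 and 6.35 in knockouts. Knockout 2 alone stood above the rest, and knockouts 1 and 3 lay within the controls' range. The log2 fold change of 0.40 ± 0.28 was the largest of all 27 genes and had the widest interval, from -0.22 to 1.03 (adjusted p = 0.439). Without knockout 2 it was -0.016. With the share of alignments outside genes as a covariate it was 0.89 (adjusted p = 0.0136).

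Noncoding transcripts at the paired Dlx loci had larger fitted differences than the Dlx genes beside them, a comparison not tested. Dlx1as shares 335 exonic bases with Dlx1 on the opposite strand, and Dlx6as1 is transcribed at the Dlx5 and Dlx6 locus with no exonic overlap found in the annotation used. As the strand setting is not known, reads of Dlx1 and Dlx1as may not have been told apart. Both were chosen after their values were seen. Dlx1as had 280, 133 and 250 counts in controls and 150, 87 and 84 in knockouts, or 7.65 ± 2.74 against 3.96 ± 1.59 CPM (SD, n = 3). Its log2 fold change was -0.95 ± 0.33, and it missed the threshold in edgeR (adjusted p = 0.177) and in DESeq2 (adjusted p = 0.0565).

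Dlx6as1 had 323, 225 and 322 counts in controls and 191, 157 and 177 in knockouts, or 10.04 ± 2.07 against 6.41 ± 0.833 CPM (SD, n = 3). Every knockout lay below every control, with a log2 fold change of -0.65 ± 0.18. It missed the threshold in edgeR (adjusted p = 0.118) and passed it in DESeq2 (adjusted p = 0.0341). Control 2 was the lowest control for both transcripts, as it was for Dlx1, Dlx2, Dlx5 and Dlx6. Of 10 forebrain markers 6 had fold changes below 0 and 0 were called in edgeR or DESeq2, with 1 at an unadjusted p under 0.05. That gene was Lhx2, a forebrain and eye field factor (log2 fold change -0.38 ± 0.11, edgeR adjusted p = 0.133). Their summed level was 90.1 to 117 CPM in controls and 84.8 to 93.6 CPM in knockouts, and the part of forebrain in the Dlx values was not tested.

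**Figure D3:**
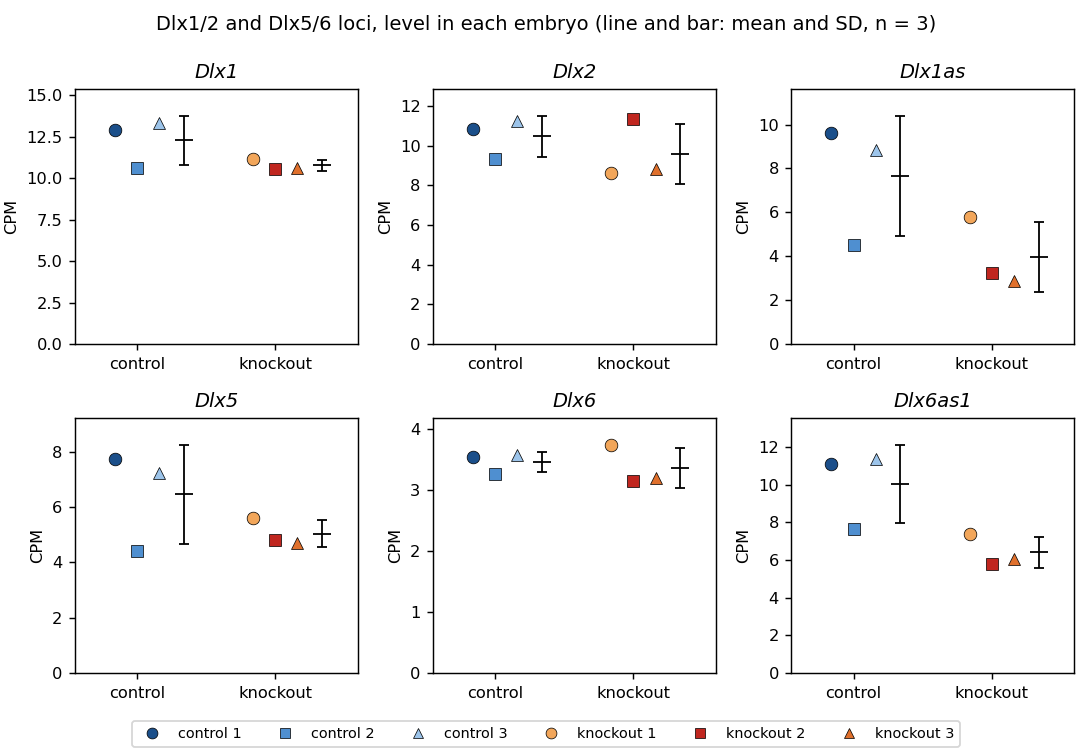
CPM (y axis, from 0) in each of the 6 embryos for Dlx1, Dlx2 and Dlx1as (upper row) and for Dlx5, Dlx6 and Dlx6as1 (lower row). Each point is 1 library, and the line and bar beside each group are its mean and SD (n = 3). The groups are apart for Dlx6as1 and overlap in the other 5 panels, with control 2 the lowest control throughout.

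Ednra and Hand2 belong to the endothelin pathway of the lower jaw. Ednra, the receptor on arch crest for endothelin-1, had 56.0, 53.02 and 56.2 CPM in controls and 57.6, 48.3 and 48.1 in knockouts. Knockout 1 was the highest of all 6 libraries and the other knockouts the lowest, giving a log2 fold change of -0.10 ± 0.09 (adjusted p = 0.558). Hand2, a target of endothelin signals in the lower arch that also acts in heart, limb bud and sympathetic precursors, had 46.1, 42.5 and 38.7 CPM in controls and 37.1, 46.7 and 37.9 in knockouts. Its log2 fold change was -0.06 ± 0.11 (adjusted p = 0.777).

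The ligand side of the same pathway held 1 called gene. Ece1, the enzyme that cuts the endothelin precursor to its active form, rose in knockouts, with 86.6, 81.2 and 83.4 CPM in controls and 106, 129 and 114 in knockouts. Every knockout lay above every control, and the increase was 1.39-fold (log2 0.48 ± 0.09, adjusted p = 0.0316). The call was lost without control 1 (adjusted p = 0.156), control 2 (0.124), control 3 (0.0949) or knockout 3 (0.117). Edn1, the ligand itself, had 66, 75 and 76 counts in controls and 88, 143 and 94 in knockouts, a log2 fold change of 0.66 ± 0.23 (adjusted p = 0.169). With the share of alignments outside genes as a covariate it was 0.95 and passed the threshold (adjusted p = 0.0334). Ece1 was the only one of 9 tested endothelin pathway genes that was called by edgeR without that covariate or by DESeq2, and the list's median was 0.07. Of the 9 genes 6 had fold changes above 0 and 3 below. Edn3, another endothelin ligand gene, chosen after its values were seen, lay below 0 (-0.15, edgeR adjusted p = 0.461). It averaged 15.7 CPM in controls, against 2.50 CPM for Edn1. Ece1 and Edn1 are also strong in endothelium, whose markers are given beside Ets1, and the part of endothelium in either was not tested.

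Msx1 and Msx2 encode homeodomain repressors that respond to BMP signals in arch mesenchyme, limb bud and dorsal neural tube. Msx1 had 63.0, 60.3 and 53.3 CPM in controls and 50.8, 50.7 and 46.6 in knockouts, or 58.8 ± 5.02 against 49.4 ± 2.41 CPM (SD, n = 3). Every knockout lay below every control. The fitted difference was 1.19-fold downward, or -0.25 ± 0.09 on the log2 scale with an interval from -0.45 to -0.05, and it missed the threshold (adjusted p = 0.172). Msx2 had 22.4, 22.9 and 20.2 CPM in controls and 19.4, 22.0 and 19.6 in knockouts, which overlapped, with a log2 fold change of -0.10 ± 0.10 (adjusted p = 0.595).

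Within a library, the log2 ratio of Msx1 to Msx2 was 1.49, 1.40 and 1.40 in controls and 1.39, 1.20 and 1.25 in knockouts. The groups did not overlap but nearly met, with a difference of -0.15. The two-sided exact permutation p was 0.1, the smallest that 3 embryos against 3 can give, or 0.35 after adjustment over the 7 gene pairs compared in this way. The log2 ratio of Ednra to Ednrb gave the same p, with -0.84, -0.79 and -0.77 in controls and -0.85, -1.10 and -0.96 in knockouts. Control 1 and knockout 1 were almost equal there, and the difference was -0.17. For the other 5 pairs (Dlx1 to Dlx2, Dlx5 to Dlx6, Alx1 to Alx4, Sox10 to Sox9 and Snai1 to Snai2) the groups overlapped.

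Barx1 and Twist1 mark arch mesenchyme more widely. Barx1, a homeodomain factor of the maxillary and mandibular mesenchyme and of the stomach, had 12.4, 11.5 and 12.1 CPM in controls and 11.4, 11.8 and 8.30 in knockouts. Knockout 3 was the lowest library, knockout 2 lay among the controls, and the log2 fold change was -0.19 ± 0.15 (adjusted p = 0.485). Twist1, a bHLH factor that keeps cranial crest mesenchymal, had 112, 98.3 and 97.6 CPM in controls and 102, 121 and 102 in knockouts. Its groups overlapped, with a log2 fold change of 0.08 ± 0.09 (adjusted p = 0.666).

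Alx1 and Alx4 encode homeodomain factors of the frontonasal mesenchyme, and Alx4 also acts in the anterior limb bud. Alx4 had 72.9, 69.6 and 68.6 CPM in controls and 82.4, 77.7 and 78.6 in knockouts, or 70.3 ± 2.23 against 79.6 ± 2.50 CPM (SD, n = 3). Every knockout lay above every control. The fitted level was 1.13-fold higher, a log2 fold change of 0.18 ± 0.07 with an interval from 0.02 to 0.34, and it missed the threshold (adjusted p = 0.214). Alx1 had 25.6, 21.7 and 21.0 CPM in controls and 22.9, 25.1 and 22.7 in knockouts, which overlapped (log2 fold change 0.05 ± 0.11, adjusted p = 0.829). Alx1 and Alx4 thus had fold changes above 0 and Msx1 and Msx2 below 0 under each scaling tried, and none of them was called by edgeR or DESeq2.

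Levels can be set beside each other between genes only roughly, once divided by exonic length. The lengths span every exon of a gene in GENCODE M21, and the annotation used for the counts is not given. In CPM per kilobase, Crabp1 was the most abundant of the 27 genes, with 269 in controls and 278 in knockouts. Twist1 came next with 63.1 and 66.6, ahead of Sox9, Nr2f1 and Ednrb at 25.4, 23.1 and 22.5 in controls. Foxd3, at 1.89 in controls, and Dlx6, at 1.46 in controls and 1.41 in knockouts, were the lowest in both groups. These are levels in the whole embryo, so a gene confined to few cells is low here however strong it is in them.

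The libraries of a group did not deviate alike. Knockout 2 held the highest value of all 6 libraries for 11 of the 27 genes, 7 of crest and 4 of arch. Control 2 held the lowest value for 11 genes, 9 of crest and 2 of arch. Neither count was made over all genes tested, so whether these genes differ from the rest in this is not known. On a log2 scale with 0.5 CPM added, knockout 2 lay above the control mean by 0.95 for Dlx3, 0.53 for Sox10, 0.52 for Snai1 and 0.34 for Snai2. The median deviation over the 14 crest genes was 0.073, -0.11 and 0.071 in controls and 0.065, 0.20 and 0.035 in knockouts. Knockouts 1 and 3 therefore lay within the controls' span over the crest genes, and only knockout 2 lay above it.

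Over the 13 arch genes the median deviation was 0.077, -0.060 and -0.035 in controls and -0.11, 0.016 and -0.16 in knockouts. Here knockout 2 lay within the controls' span and the other knockouts lay below it. Knockout 2 was also the knockout with the highest low oxygen response, with a median deviation of 1.80 over those 10 genes against 0.32 and 0.77 in knockouts 1 and 3. Its share of alignments outside genes was the lowest of the knockouts. The part of either in the crest and arch values was not tested.

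**Figure D4:**
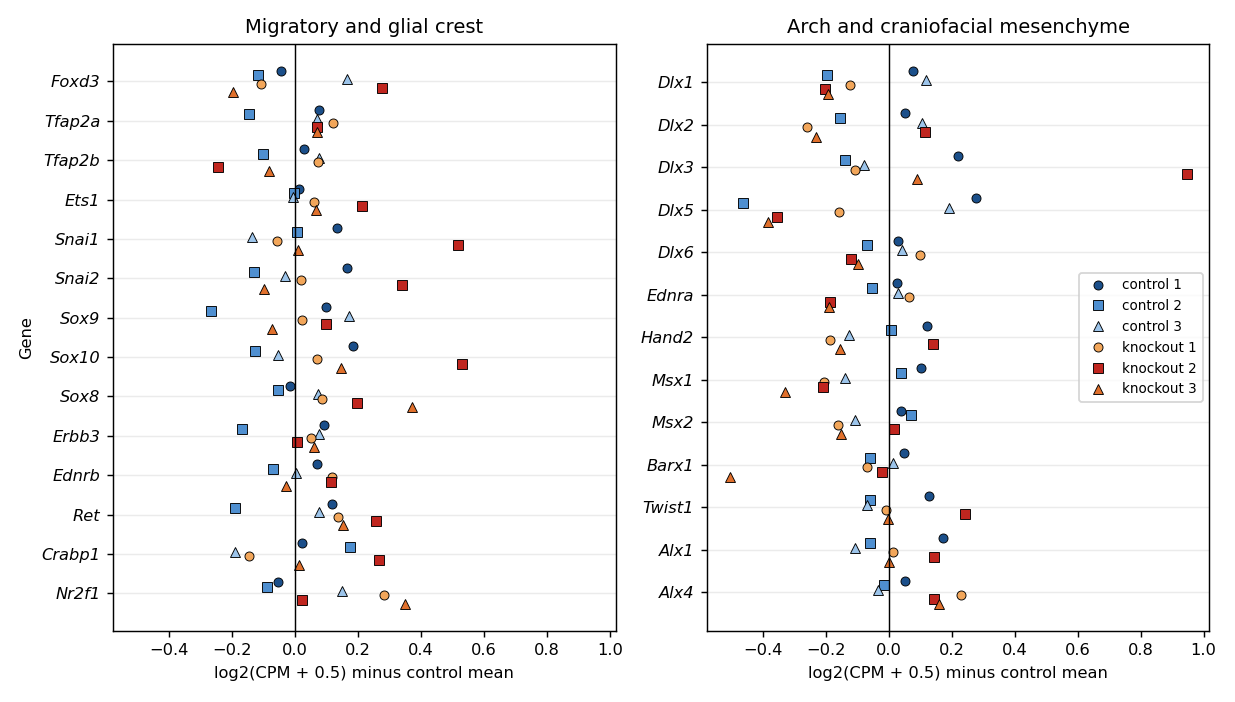
Deviation of each embryo from the control mean, as log2(CPM + 0.5) (x axis), for the 14 crest genes (left) and the 13 arch genes (right) listed on the y axis. Each point is 1 library, controls in blue and knockouts in orange and red. Knockout 2 lies farthest right at Dlx3 (0.95), Sox10 (0.53) and Snai1 (0.52).

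Other genes of the same pathways and lineages came from lists set up for context. Of 8 neuregulin and ERBB genes tested, 0 were called and 0 reached an unadjusted p under 0.05, and Erbb4 had the smallest p (log2 fold change 0.35 ± 0.21, adjusted p = 0.373). Of 11 GDNF and RET genes 0 were called and 3 reached it. The 3 were Gdnf, the RET ligand (0.49, adjusted p = 0.220), and the feedback inhibitors Spry2 (0.26, adjusted p = 0.196) and Spry1 (0.32, adjusted p = 0.233). DESeq2 called 0 in both lists.

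Of 14 genes of crest induction and the neural plate border 11 had fold changes above 0, with a median of 0.13. None was called by edgeR or DESeq2, and 3 reached an unadjusted p under 0.05. Wnt1, the dorsal neural tube signal that induces crest, had 93, 102 and 95 counts in controls and 100, 185 and 163 in knockouts, a log2 fold change of 0.70 ± 0.21 (adjusted p = 0.141). Knockout 1 was close to the controls and the other knockouts were well above them. Bmp4, another signal of the neural plate border, also reached it (0.26, adjusted p = 0.176).

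Later crest lineages gave no edgeR call. Of 16 other migratory crest and early glial genes 11 had fold changes below 0 (median -0.03). None was called by either tool, and 1 reached an unadjusted p under 0.05, the glial fatty acid binding protein gene Fabp7 (-0.24, adjusted p = 0.232). Among 5 tested melanoblast genes, 0 were called in edgeR and 2 reached an unadjusted p under 0.05. Dct, the dopachrome tautomerase of pigment cells, had 108, 53 and 80 counts in controls and 42, 19 and 29 in knockouts.

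Every Dct value in knockouts lay below every control, at a log2 fold change of -1.33 ± 0.36. It missed the threshold in edgeR (adjusted p = 0.108) and passed it in DESeq2 (adjusted p = 0.0220), as the only melanoblast gene to do so. Dct is also expressed in the forebrain and the eye's pigment layer. Pmel, another pigment gene, had a log2 fold change of -0.59 (adjusted p = 0.166), while Kit, the receptor of migrating melanoblasts, had 0.23 (adjusted p = 0.317). Of the 5 tested melanoblast genes 3 had fold changes above 0 and 2, Dct and Pmel, below.

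Of 12 autonomic and enteric precursor genes 7 had fold changes below 0 and 0 were called by edgeR or DESeq2, with 2 at an unadjusted p under 0.05. These were Isl1 (-0.27, adjusted p = 0.167) and Insm1 (-0.40, adjusted p = 0.181), which are shared with other neurons. Of 11 sensory ganglion and placode genes 0 were called by edgeR, while 7 reached an unadjusted p under 0.05, with a median of -0.21. Neurog2, which starts sensory neuron formation in crest and is also active in the neural tube, had 813, 731 and 797 counts in controls and 465, 580 and 559 in knockouts. Its groups were apart at a log2 fold change of -0.47 ± 0.10, which missed the threshold in edgeR (adjusted p = 0.0675) and passed it in DESeq2 (adjusted p = 0.00805). Neurog1, its relative in placodes and ganglia, had -0.48 ± 0.13 (adjusted p = 0.116 in edgeR and 0.0430 in DESeq2). Without knockout 2 edgeR called Neurog2 (adjusted p = 0.0102) and Neurog1 (0.0278), both lower in knockouts.

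Of 20 other arch and facial mesenchyme genes 8 had fold changes above 0 and 12 below, with a median of -0.02. None was called by edgeR or DESeq2, and 3 reached an unadjusted p under 0.05. Among them were Nr2f2, the relative of Nr2f1 (0.19, adjusted p = 0.214), and Prrx2 (-0.20, adjusted p = 0.249). Tbx22, a palate and facial mesenchyme factor, had -0.54 (adjusted p = 0.300).

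The arch epithelium list held 1 called gene of 11. Fgf15, a fibroblast growth factor of arch epithelium and of the forebrain and midbrain, rose in knockouts. It had 11.8, 14.6 and 12.6 CPM in controls and 18.6, 30.7 and 25.7 in knockouts, with every knockout above every control. The rise was 1.92-fold (log2 0.94 ± 0.18, adjusted p = 0.0363), and DESeq2 called it too. The call was lost without control 1 (adjusted p = 0.210), control 2 (0.113), control 3 (0.107) or knockout 3 (0.137). Of the 11 genes 7 had fold changes above 0 and 4 below. Pax1, a pharyngeal pouch and sclerotome factor, lay below 0 and was not called (-0.22, adjusted p = 0.275). Shh (0.24, adjusted p = 0.289) and Tbx1 (0.29, adjusted p = 0.317), the latter a pharyngeal endoderm and mesoderm factor, were not called.

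**Figure D5:**
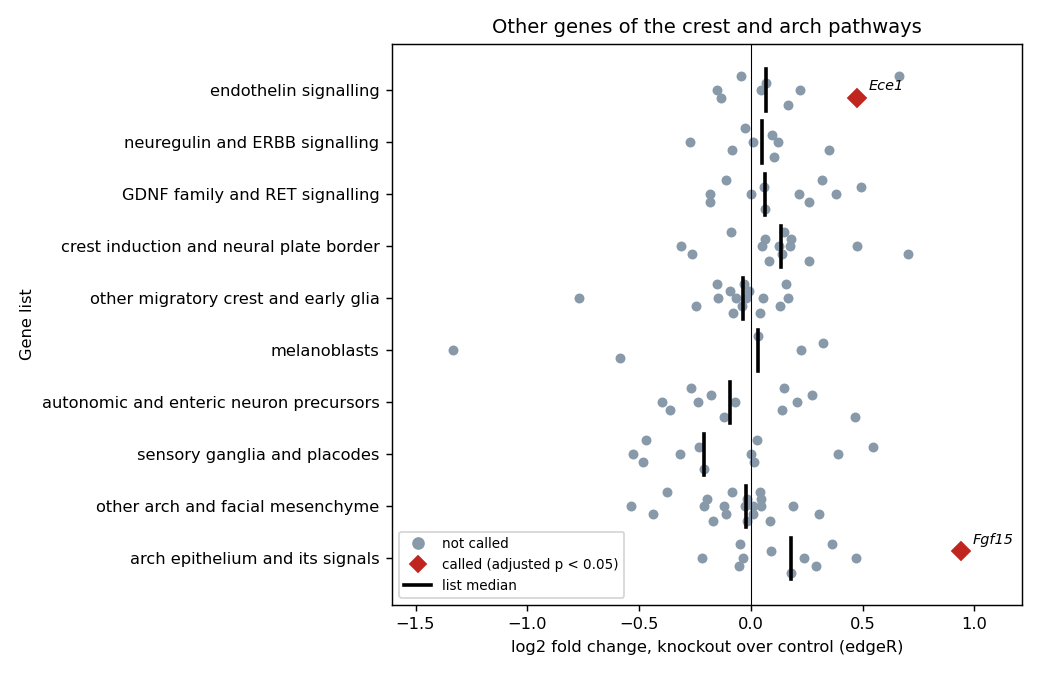
Fitted log2 fold change of knockout over control (x axis) for the tested genes of 10 context lists (y axis). Each point is 1 gene, red diamonds are genes called in edgeR at an adjusted p under 0.05, and black bars are list medians. Ece1 and Fgf15 are the only called genes in these lists.

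Several other tissues express genes of the 2 sets, and their markers are given as values. Of 11 limb bud markers, a tissue that shares Msx1, Msx2, Alx4, Hand2 and Twist1, 0 were called by either tool and 2 reached an unadjusted p under 0.05 (median 0.06). Their summed level was 127 to 164 CPM in controls and 141 to 162 in knockouts. Of 12 heart muscle markers 0 were called in edgeR and 2 in DESeq2, 3 reached an unadjusted p under 0.05 and the median was 0.15. Myh7, a cardiac myosin gene, had the smallest p (0.49 ± 0.11, edgeR adjusted p = 0.0752, and 0.00820 without knockout 2). Their summed level was 381 to 393 CPM in controls and 429 to 443 in knockouts. Of 8 sclerotome and cartilage markers, a tissue that shares Sox9, 0 were called by either tool and 0 reached an unadjusted p under 0.05 (median 0.06). Of 7 erythroid markers 0 were called by either tool and 0 reached it (median -0.07). Macrophage markers fell in knockouts, with 12 of 12 called lower by both tools and summed levels of 73.1 to 87.8 CPM in controls and 2.06 to 3.01 CPM in knockouts. Of 6 nephric markers 0 were called by either tool and 2 reached an unadjusted p under 0.05 (median 0.08). The part of these tissues in the values of the 27 genes was not tested.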

How the data were processed

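RNA-seq was made from whole embryos with polyA RNA and a stranded kit, per the labels' protocols. There were 6 libraries, 3 per group, and the number of embryos in each is not given. The deposited values are raw read counts per gene symbol, which the authors made on mm9. HTSeq, Trimmomatic, Bowtie2 and TopHat2 are listed, without roles, in the submitters' processing notes. Tool versions, gene annotation and strand setting: not given in the sources used here. Table rows that name no gene were left out of library sizes and tests, and give the share of alignments outside genes (9.79% to 18.3%). Deposited counts over repeats were not used.

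Counts were tested with edgeR 4.0.16 (R 4.3.3): TMM scaling, filterByExpr (minimum count 10, minimum total 15), a robust quasi-likelihood test of knockout against control and Benjamini-Hochberg adjustment over 15075 genes, with a gene called at an adjusted p under 0.05. The scripts were tested on simulated data. The biological coefficient of variation was 12.2%. Intervals are 95%. Exonic lengths and overlaps came from GENCODE M21, another build than mm9, so no coordinates are given. Alternatives were other scalings, DESeq2 1.42.0, other filters, a replicate block, a covariate and each library left out.

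The 27 genes and the context lists were chosen with earlier results of these data known. Genes named are the 27, the H3.3 genes, Trp53 and, per list, up to 4 with the smallest p. Some genes that this rule names are not reported here. Exceptions are marked. Lists of sclerotome, nephric, erythroid and macrophage markers served as context.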

Additional observations from a re-analysis of the deposited data

How the results depend on the processing

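Over 14 alternatives the 27 genes gave 378 values: 346 kept their sign and their side of the threshold, 4 passed it, and 28 changed sign, in 13 genes. With the share of alignments outside genes as a covariate, 3 genes were called higher against 0 (Dlx3 0.89, adjusted p = 0.0136; Snai1 0.48, 0.0195; Sox10 0.50, 0.0392), 4.96% of all genes were called, and the arch median was 0.017 against -0.10. Leaving out each library gave 0 to 1 genes called higher (without knockout 2, Nr2f1 at 0.31, adjusted p = 0.0410, when 10.8% of all genes were called).

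Sign changes: Foxd3 was 0.0025 with RLE scaling and DESeq2, 0.047 with library totals, 0.00075 with no filter, 0.00073 with the CPM filter and 0.17 with the covariate. Sox9 was -0.0051 with upper quartile scaling and Dlx6 0.015 with library totals. With the covariate Erbb3 was -0.00053, Dlx2 0.032, Hand2 0.13 and Msx2 0.017. The cause was not tested. Leaving out each library gave ranges of -0.18 to 0.10 for Foxd3, -0.031 to 0.29 for Snai1, -0.049 to 0.19 for Snai2, -0.12 to 0.093 for Sox9, -0.049 to 0.080 for Erbb3, -0.075 to 0.14 for Crabp1, -0.016 to 0.61 for Dlx3, -0.12 to 8.1e-05 for Dlx6, -0.18 to 0.0028 for Hand2, -0.011 to 0.15 for Twist1 and -0.0035 to 0.14 for Alx1. The set medians ranged from 0.046 to 0.14 (crest) and from -0.17 to -0.047 (arch).

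Same-numbered libraries correlated at -0.086, 0.17 and 0.26 in their deviations. Libraries of different numbers ran from -0.42 (control 3 and knockout 2) to 0.32 (control 3 and knockout 1), so the numbers were not taken as pairs. The replicate block called 589 genes in all against 227, and 0 of the 27 (lowest adjusted p = 0.0965, Msx1). Calls over all genes were 779 with DESeq2, 748 with the covariate, 142 with the CPM filter and 60 to 1663 with a library left out. With 3 embryos a group, the data left room for a difference of any size within the interval given for a gene.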
